A study of Homo sapiens with 8 samples.

Results

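The comparison covers every ATAC-seq library from cells exposed to pomalidomide against every library from cells that were not, in JJN3 and KMS11, established human multiple myeloma cell lines. It takes 4 of the 8 libraries of the series as the pomalidomide group and the other 4 as the group without it, chosen by treatment label alone. The pomalidomide group holds, in each line, 1 library with pomalidomide at 200 nM and 1 with pomalidomide at 200 nM together with GNE-781 at 40 nM. The group without pomalidomide holds, in each line, 1 library with GNE-781 at 40 nM and 1 with the solvent DMSO. Exposure lasted 48 h in every library. Each library with pomalidomide therefore has 1 partner of the same line and the same GNE-781 state, which gives 4 matched pairs with no library in common. The comparison asks how chromatin accessibility differs with pomalidomide when both lines and both GNE-781 states are read together.

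Pomalidomide is an immunomodulatory drug that binds cereblon (CRBN), the substrate receptor of a ubiquitin ligase, and thereby directs the zinc finger transcription factors IKZF1 and IKZF3 to the proteasome. Both factors are needed by myeloma cells, where they act together with the plasma cell factor IRF4 and act upstream of MYC. GNE-781 blocks the bromodomains of the histone acetyltransferases EP300 and CREBBP, which work at enhancers. ATAC-seq reads where a transposase can insert into DNA, so a higher count in a peak means more accessible chromatin there. It does not measure the protein or the RNA of the nearest gene.

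The libraries with pomalidomide held 2060036 to 5435673 counts in peaks, and those without held 1366628 to 3786690. In all 4 pairs the library with pomalidomide was the deeper one, by 1.21 to 2.36 times, so depth moved with the group. The reading with all libraries thinned to the smallest is therefore given beside the first count. Promoter peaks, those within 1000 bp of an annotated transcript start, took 49.2 ± 1.29% of the counts with pomalidomide and 49.2 ± 1.43% without (SD, n = 4 each). That difference of -0.0326 percentage points gave p = 1 in an exact two-sided permutation test within pairs, where the smallest p allowed is 2 of 16 arrangements. Peaks at the plasma cell markers CD38 and SDC1 had counts in every library. Peaks at the T and NK cell markers CD2, GNLY, CD247 and TRAC did too, so counts alone do not show the cell type. In JJN3 a CD2 peak held 36.6 to 54.8 CPM (read counts scaled to library size), above the CD38 promoter peak at 24.2 to 35.3. In KMS11 the order was reversed, with 3.36 to 9.26 CPM at CD2 against 24.0 to 37.8 at CD38. Of the markers of other cells, 12 of 18 for T and NK cells, 8 of 16 for myeloid, 7 of 13 for erythroid and 13 of 16 for stromal and endothelial cells had a peak in the table used here, while CD3D, CD3G, CD14, LYZ, MPO, ALAS2 and GATA1 had none.

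More peaks were called higher with pomalidomide than lower. Peaks up to 250 bp wide went the other way, with 80 higher and 117 lower, as did those over 80 CPM, with 13 and 16. All other classes of width and level had more rises. Of 62234 peaks tested, 2733 were higher with pomalidomide, a background of 4.39%, and 1131 were lower, a background of 1.82%. Together 3864 peaks, 6.21% of those tested, passed an adjusted p under 0.05 by the quasi-likelihood test of edgeR with Benjamini-Hochberg adjustment, with cell line and GNE-781 as covariates. Of the called peaks 70.7% were higher. The peak set was merged over libraries that were deeper with pomalidomide, and its part in this direction was not tested. The median log2 change was 1.05 among the rises and -0.82 among the falls, against -0.01 over all peaks tested. A change of at least 2-fold was reached by 1508 of the rises and by 287 of the falls. With all libraries thinned to the depth of the smallest, 1560 peaks passed, of which 76.1% were higher, and 1414 of them were among the 3864. Leaving out 1 library left 1834 to 3362 calls, with fewest when the KMS11 pomalidomide library was left out (1834), followed by KMS11 DMSO (1910), KMS11 GNE-781 (2102) and KMS11 with the combination (2138).

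The rises were seen in both lines and with or without GNE-781. Among the 2733 rises the median log2 CPM difference was 0.75 in the JJN3 pair without GNE-781, 0.77 in the JJN3 pair with GNE-781, 1.04 in the KMS11 pair without GNE-781 and 1.06 in the KMS11 pair with it. Among the 1131 falls the medians were -0.72, -0.69, -0.83 and -0.70 in the same pairs. The median over all peaks lay between -0.02 and 0.04 in every pair. In the KMS11 pairs 99.5% and 98.9% of the rises lay above 0, and in the JJN3 pairs 88.7% and 90.8% did. All 4 pairs had the sign of the call at 3139 called peaks, or 81.2%, against 22.6% of all peaks tested whose 4 pairs shared 1 sign. Since these peaks were called from the same libraries, the figures describe the calls and do not check them.

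**Figure D1:**
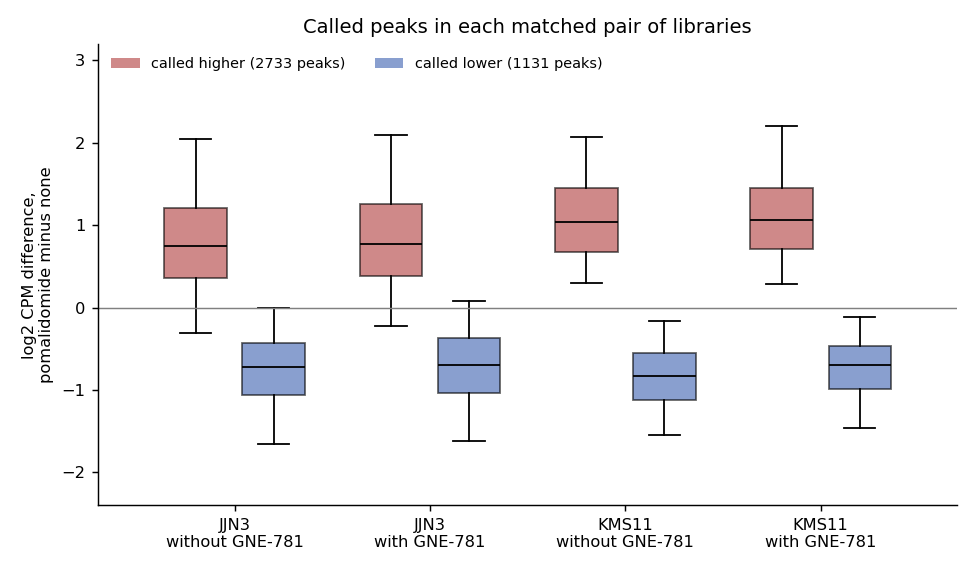
Log2 CPM difference of the called peaks in each of the 4 matched pairs, pomalidomide minus no pomalidomide, for the 2733 peaks called higher (red) and the 1131 called lower (blue). Boxes span the 25th to 75th percentile with the median as a line, and whiskers reach the 5th and 95th percentiles; the medians of the rises run from 0.75 to 1.06 and those of the falls from -0.83 to -0.69.

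A check on separate libraries was possible because the pairs share none. In every pair the library with pomalidomide was the deeper one, so shared signs here or between the lines cannot separate the drug from depth. Peaks called from the 4 libraries without GNE-781 alone, 865 higher and 234 lower, were read in the 4 libraries with GNE-781: 98.2% of the rises and 89.7% of the falls had the same sign there, where 48.1% of all peaks lay above 0. The median difference in those other libraries was 0.94 for the rises and -0.47 for the falls. In the opposite direction, 959 rises and 166 falls were called from the libraries with GNE-781. Of these 98.2% and 85.5% kept their sign in the libraries without GNE-781, with medians of 0.91 and -0.39, where 51.9% of all peaks lay above 0. The called sets shared 412 peaks in 1 direction and 0 in opposite directions, which is 37.5% of the calls without GNE-781 and 36.6% of those with it. Of all 62234 peaks, 1099 were called without GNE-781 and 1125 with it.

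Between the lines the sign was shared less completely. Peaks called in JJN3 alone (864 higher, 454 lower) had the same sign in KMS11 for 85.1% of the rises and 75.3% of the falls. Of all peaks 47.8% lay above 0 in KMS11 and 52.2% below. Peaks called in KMS11 alone (2902 higher, 1110 lower) had the same sign in JJN3 for 79.6% and 73.7%, where 51.5% of all peaks lay above 0 and 48.4% below. The lines shared 375 calls in 1 direction, 28.5% of the JJN3 calls and 9.35% of the KMS11 calls, and 2 calls went opposite ways. Of the 62234 peaks, 1318 were called in JJN3 and 4012 in KMS11. Across all 62234 peaks, as a description over peaks that share depth and width, the differences of the KMS11 pairs had a Pearson r of 0.41 with each other, those of the JJN3 pairs 0.21, and pairs from different lines 0.17 to 0.21. The JJN3 libraries were shallower than the KMS11 libraries of the same treatment, and the part of depth in this gap was not tested.

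**Figure D2:**
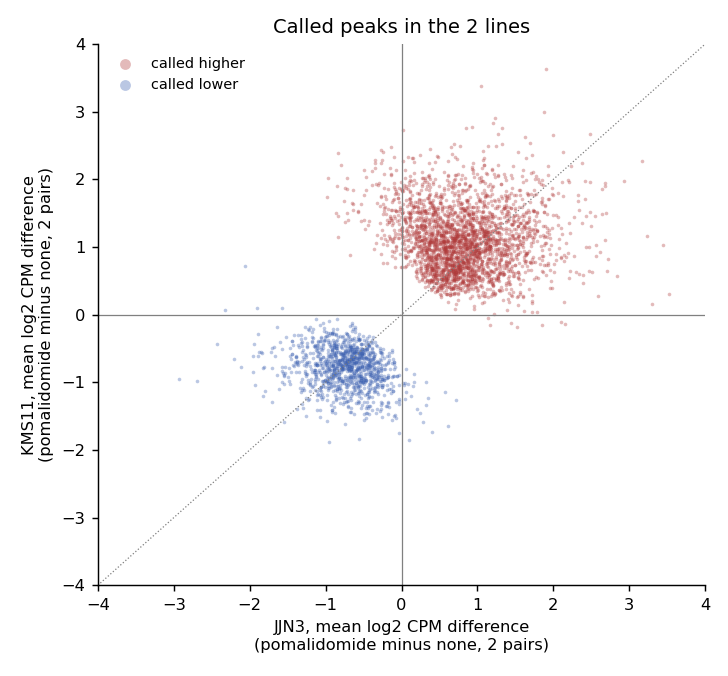
Each called peak by its mean log2 CPM difference over the 2 JJN3 pairs (x axis) and over the 2 KMS11 pairs (y axis), pomalidomide minus no pomalidomide, with the dotted line marking equal differences. Both lines had the sign of the call at 2570 of 2733 rises (94.0%) and 1105 of 1131 falls (97.7%), and 63.3% of the rises were larger in KMS11. The calls came from these same libraries.

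The rises of lowest p lay away from promoters. The peaks are described by chromosome, start and end in GRCh38 as deposited, and the gene named is the nearest in the authors' annotation, which does not show that the peak regulates it. Levels are CPM, read counts scaled to library size, in the order JJN3 without GNE-781, JJN3 with GNE-781, KMS11 without GNE-781 and KMS11 with GNE-781. Inside CTNND1, which encodes p120 catenin, a stabiliser of cadherins at cell junctions, the peak at chr11:57778256-57779005 lay 14403 bp from the start. It had 14.3, 34.4, 28.7 and 39.4 CPM with pomalidomide, against 3.01, 9.62, 2.33 and 1.94 CPM without. Every library with pomalidomide stood above every library without, and among those without, JJN3 with GNE-781 was the highest. The log2 change was 3.05 (SE 0.27, adjusted p = 6.63e-12), a fold of 8.3. The libraries without pomalidomide held 4, 15, 9 and 6 counts at this peak, so the size of the fold rests on few counts. A second CTNND1 peak at chr11:57792940-57793238, 1381 bp from the start, rose by 2.34 (SE 0.36, adjusted p = 5.65e-06). The summed counts over its 3 peaks rose by 1.93 (SE 0.17, adjusted p = 1.75e-11).

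Inside ITGA10, a collagen-binding integrin subunit, the peak at chr1:145891780-145892558 had 48.3, 40.7, 59.2 and 65.4 CPM with pomalidomide, against 15.0, 18.0, 15.5 and 20.7 CPM without. The groups did not overlap and both lines stood at similar levels, with a log2 change of 1.67 (SE 0.15, adjusted p = 1.98e-11). Near SCARB1, the HDL receptor SR-B1, the peak at chr12:124764819-124765345 lay 98572 bp from the start and had 26.7, 24.2, 14.2 and 10.7 CPM with pomalidomide, against 3.76, 1.28, 3.11 and 1.29 CPM without. Here JJN3 stood above KMS11 with the drug, and the log2 change was 2.80 (SE 0.29, adjusted p = 6.31e-10). This change too rests on few counts, with 5, 2, 12 and 4 in the libraries without pomalidomide. In ATXN1, the ataxin-1 gene, the peak at chr6:16635817-16636689 had 77.3, 83.4, 26.4 and 36.3 CPM with pomalidomide, against 33.1, 29.5, 8.8 and 11.3 CPM without. The groups overlap there because JJN3 sits above KMS11 in both of them, while each pair rises; the log2 change was 1.5 (SE 0.15, adjusted p = 5.2e-10). The other 6 rises of lowest p were near RP11-313C4.1 (log2 change 2.79), RP13-616I3.1 (1.97), RP11-603B13.1 (2.91) and RP1-32I10.10 (1.5), and in KIF25, a kinesin gene (2.18), and SYT2, a synaptotagmin gene (1.31). All 10 kept their call without any 1 library, when thinned and with DESeq2.

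The 10 falls of lowest p, again chosen for 1 sign in all 4 pairs, had log2 changes from -1.40 to -0.78. Of these, 4 were promoter peaks. At the promoter of KLF9, a Krüppel-like zinc finger transcription factor, the peak at chr9:70413743-70414405 had 20.3, 9.21, 25.9 and 24.2 CPM with pomalidomide, against 27.8, 26.9, 45.8 and 56.6 CPM without. Every library with pomalidomide was below every library without, and the log2 change was -0.96 (SE 0.16, adjusted p = 3.3e-05). Near the start of XRCC5, which encodes the Ku80 subunit of DNA end joining, a peak at chr2:216113564-216113946, 472 bp from the start, had 11.7, 3.88, 7.72 and 3.21 CPM with pomalidomide, against 34.6, 11.5, 19.9 and 5.82 CPM without. It was lower in each pair although the groups overlap, with a log2 change of -1.36 (SE 0.23, adjusted p = 4.5e-05). In MBNL1, a regulator of splicing, the peak at chr3:152332466-152333195 had 21.7, 12.6, 8.79 and 6.59 CPM with pomalidomide, against 36.8, 19.2, 31.8 and 14.9 CPM without. Each pair fell, and the log2 change was -1.16 (SE 0.20, adjusted p = 3.97e-05). The others were the promoter peaks of NLGN1-AS1 (-1.40) and RP11-861L17.2 (-0.78) and peaks in UNC5D, a netrin receptor gene (-1.17), CNTN5, a contactin gene (-1.25), ADTRP (-1.08), KCNMB2, a potassium channel subunit gene (-0.86), and MCTP1 (-1.20). All 10 kept their call without any 1 library, when thinned and with DESeq2.

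**Figure D3:**
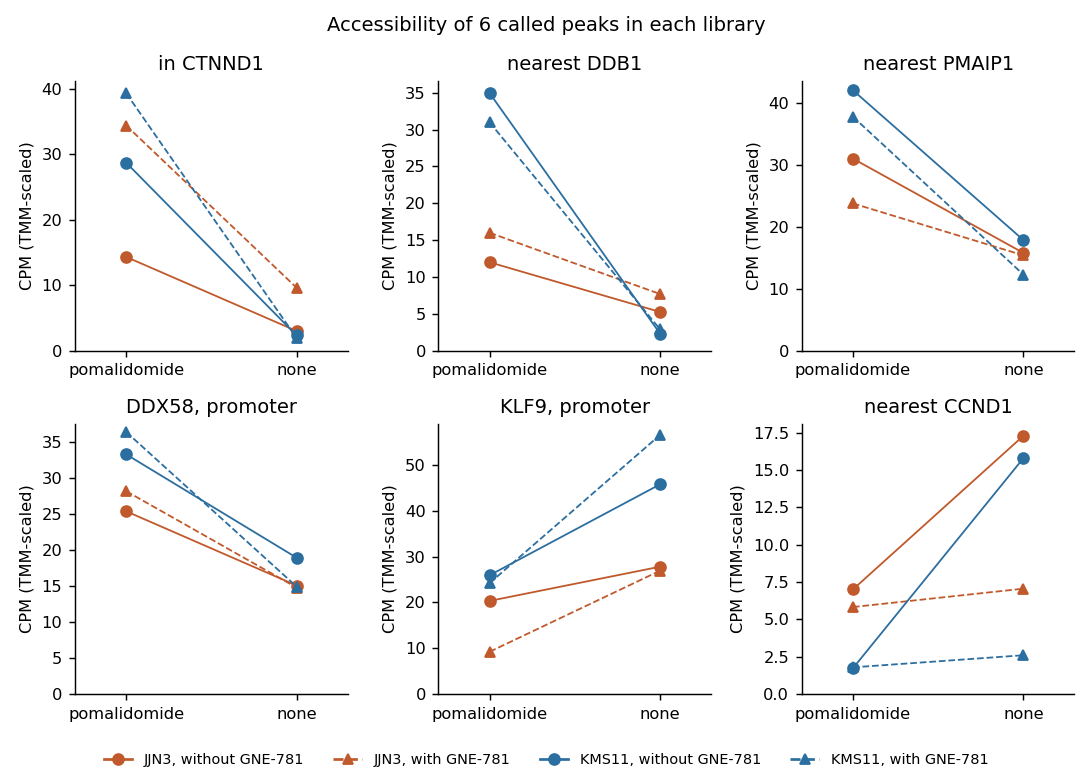
CPM (TMM-scaled, y axis from 0) at 6 called peaks in every library, with the libraries with pomalidomide on the left of each panel and those without on the right; lines join matched pairs, colour gives the cell line and symbol the GNE-781 state. All 4 lines fall to the right at CTNND1, DDB1, PMAIP1 and DDX58, and all 4 climb to the right at KLF9 and CCND1.

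Promoter peaks were called less often than distal ones. Of 15906 promoter peaks 424 passed, or 2.67%, with 328 higher and 96 lower. Peaks inside genes passed in 7.35% of 26767 cases and intergenic peaks in 7.53% of 19561. By distance to the start the share was 7.09% from 1 to 10 kb, 7.64% from 10 to 100 kb and 7.27% beyond. The median log2 change of called promoter peaks was 0.77 for rises and -0.66 for falls, against 1.13 and -0.85 for intergenic calls. The called share also moved with peak width, from 1.77% of peaks up to 250 bp wide to 9.45% of those over 500 and up to 1000 bp and 5.19% of the 5067 wider ones, and its part in the promoter gap was not tested.

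**Figure D4:**
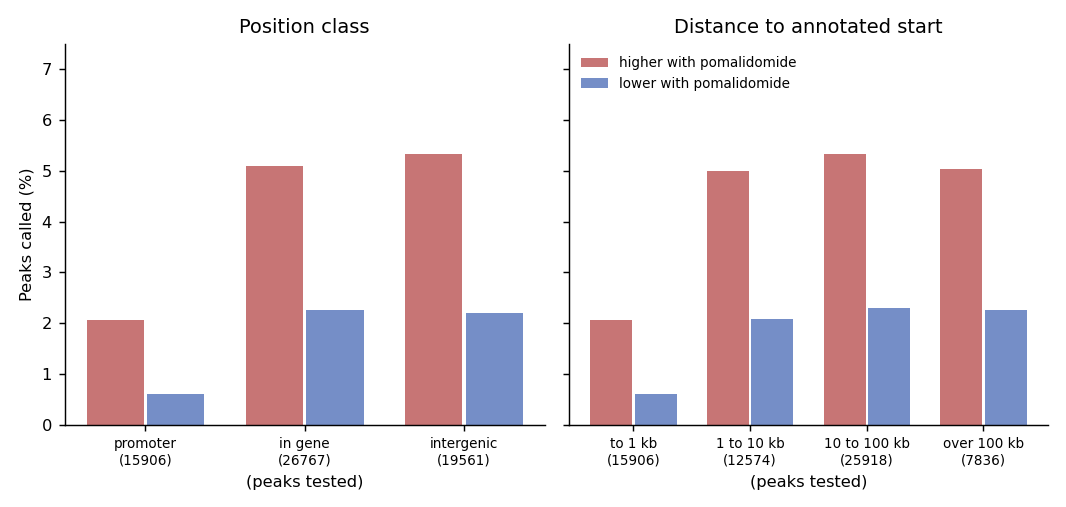
Percent of tested peaks called higher (red) and lower (blue) with pomalidomide, by position class (left) and by distance to the annotated start (right), with the number of peaks tested below each pair of bars. Rises make up 2.06% of promoter peaks, 5.09% of peaks in genes and 5.33% of intergenic peaks.

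Among promoter peaks with 1 sign in all 4 pairs, the rises of lowest p were those of PIPOX, which encodes a peroxisomal amine oxidase, HYAL4, a member of the hyaluronidase family, and the entries RP6-91H8.3, AC091199.1 and GS1-115G20.2. The PIPOX promoter peak at chr17:29042529-29043531 had 47.0, 32.5, 70.1 and 60.9 CPM with pomalidomide, against 31.6, 14.1, 22 and 20.4 CPM without. Groups did not overlap, the KMS11 pairs showed the wider gap, and the log2 change was 1.35 (SE 0.16, adjusted p = 1.67e-08). The HYAL4 peak at chr7:123845937-123846924, 768 bp from the start, had 48.0, 35.9, 40.3 and 36 CPM with pomalidomide, against 13.5, 7.69, 17.6 and 16.5 CPM without. All 4 libraries with the drug stood above the rest, with a log2 change of 1.44 (SE 0.17, adjusted p = 1.67e-08). The 3 other entries rose by 1.79, 1.83 and 1.26 in the order named. Beside those given above, the promoter fall of GALNT5, a mucin-type glycosyltransferase gene, was -1.72 (SE 0.30, adjusted p = 7.89e-05).

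Promoter sequences are shown for 5 genes whose start window overlaps a called peak: PIPOX as the promoter rise of lowest p with an entry, NLGN1-AS1 as the promoter fall of lowest p, and DDX58, CD38 and CXCR3 for the interferon, plasma cell and homing genes described further on. Each is the RefSeq window of GRCh38.p14, from 250 bases before to 50 after the start, read 5′ to 3′ on the strand of the gene. Of 25 named promoter peaks 17 had an entry, and in 11 the window overlapped the peak. Capitals mark matches to any of 7 motifs searched on both strands. In PIPOX, chr17:29042891-29043190 (plus strand), they mark the Ikaros family core TGGGAA. In NLGN1-AS1, chr3:173920747-173921046 (minus strand), they mark an interferon-stimulated response element, GAAANNGAAA, and an AP-1 site, TGANTCA, both outside the called peak. In DDX58, named RIGI in RefSeq, chr9:32526147-32526446 (minus strand), they mark an ETS-IRF composite element, GGAANNGAAA, and an NF-kB site, GGGANTTTCC, on the opposite strand. In CD38, chr4:15778078-15778377 (plus strand), they mark an Ikaros core that overlaps an ETS-IRF element. In CXCR3, chrX:71618462-71618761 (minus strand), they mark a RUNX site, TGTGGT, on the opposite strand.
PIPOX: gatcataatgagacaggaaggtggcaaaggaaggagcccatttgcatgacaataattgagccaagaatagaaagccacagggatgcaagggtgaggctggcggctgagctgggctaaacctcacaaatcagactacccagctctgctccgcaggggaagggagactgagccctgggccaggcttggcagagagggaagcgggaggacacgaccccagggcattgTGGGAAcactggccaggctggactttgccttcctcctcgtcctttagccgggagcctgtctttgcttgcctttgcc
NLGN1-AS1: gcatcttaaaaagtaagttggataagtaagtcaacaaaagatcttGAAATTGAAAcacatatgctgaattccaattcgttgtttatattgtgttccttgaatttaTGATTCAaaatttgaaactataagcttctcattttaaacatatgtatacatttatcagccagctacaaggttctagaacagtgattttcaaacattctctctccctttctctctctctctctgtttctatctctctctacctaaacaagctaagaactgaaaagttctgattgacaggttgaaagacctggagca
DDX58: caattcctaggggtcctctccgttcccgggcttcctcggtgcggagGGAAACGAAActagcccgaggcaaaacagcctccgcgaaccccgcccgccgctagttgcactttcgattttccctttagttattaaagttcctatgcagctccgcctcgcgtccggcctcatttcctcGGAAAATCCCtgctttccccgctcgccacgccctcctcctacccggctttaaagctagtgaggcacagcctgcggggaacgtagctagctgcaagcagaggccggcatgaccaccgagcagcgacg
CD38: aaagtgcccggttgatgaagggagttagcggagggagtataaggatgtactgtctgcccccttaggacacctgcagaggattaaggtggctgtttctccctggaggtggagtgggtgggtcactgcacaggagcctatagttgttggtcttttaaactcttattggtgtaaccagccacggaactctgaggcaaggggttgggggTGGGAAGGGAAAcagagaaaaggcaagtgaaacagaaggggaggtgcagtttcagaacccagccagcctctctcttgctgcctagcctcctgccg
CXCR3: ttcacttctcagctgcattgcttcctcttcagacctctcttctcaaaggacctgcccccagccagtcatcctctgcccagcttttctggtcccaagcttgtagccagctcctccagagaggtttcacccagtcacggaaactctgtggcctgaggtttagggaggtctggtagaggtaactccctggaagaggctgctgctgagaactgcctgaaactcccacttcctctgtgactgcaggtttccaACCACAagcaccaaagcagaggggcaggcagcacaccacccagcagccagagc

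The same letters were counted in all windows, as a description. The Ikaros core TGGGAA was present in 29.5% of the 258 windows that overlap a rise, 11.8% of the 34 windows that overlap a fall, 21.2% of the 15812 that overlap any tested peak and 24% of all 35116. The interferon-stimulated element GAAANNGAAA was in 7.36% of windows in rises, 2.94% in falls, 2.77% in any tested peak and 3.57% of all. AP-1 letters were in 8.14% and 17.6% of windows in rises and falls, against 4.51% in any tested peak. The NF-kB letters were in 1.94% and 2.94%, against 0.734%, and TGTGGT in 15.1% and 17.6%, against 9.55%. The ETS letters CCGGAA were in 24% and 17.6%, against 29.4%, and GGAANNGAAA in 3.49% and 5.88%, against 2.62%. A window of 300 bases holds only part of most peaks, and the 34 windows in falls are few. A match can lie outside the overlapping peak, as in NLGN1-AS1, and shows letters, not binding.

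At genes of the cereblon ligase and the Ikaros family, single distal peaks were called higher and none lower. They lay near DDB1, a ligase gene, and at IKZF3 and IKZF1, whose proteins are substrates and not parts of the ligase. Of 44 peaks at 15 genes of the cereblon ligase and the Ikaros family, 5 were higher and 0 lower, or 11.4% against the 6.21% of all peaks; the median log2 change was 0. The peak at chr11:61297459-61298184, 35182 bp from DDB1, which encodes the adaptor that ties cereblon to the ligase, had 12.0, 16, 35 and 31.0 CPM with pomalidomide, against 5.26, 7.69, 2.33 and 2.91 CPM without. Both lines rose and KMS11 rose further, with a log2 change of 2.69 (SE 0.29, adjusted p = 1.63e-09). CRBN itself had no called peak: its promoter peak at chr3:3179458-3180055 had 30.0, 35.9, 19.7 and 21.7 CPM with pomalidomide, against 33.1, 39.8, 28.0 and 18.8 CPM without. The groups overlap, and the log2 change was -0.18 (SE 0.16, adjusted p = 0.63).

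The Ikaros genes are read in every library because their proteins are the drug's substrates. IKZF3, which encodes Aiolos, had 3 called peaks of 9, all distal. The peak at chr17:39757996-39758274 had 15.7, 22.8, 16.1 and 16.4 CPM with pomalidomide, against 9.77, 6.41, 7.25 and 9.38 CPM without. The groups did not overlap, and JJN3 with the combination was the highest. Its log2 change was 1.07 (SE 0.22, adjusted p = 0.000882), which did not pass when thinned (adjusted p = 0.214). The peak at chr17:39755635-39756503 rose by 0.70 (SE 0.15, adjusted p = 0.0016), and the peak at chr17:39820551-39820996 by 1.34 (SE 0.32, adjusted p = 0.00475), the last of these losing its call without KMS11 pomalidomide (adjusted p = 0.115) or KMS11 DMSO. The IKZF3 promoter peak at chr17:39864012-39864443 had 10.7, 12.6, 10.9 and 13.2 CPM with pomalidomide, against 4.51, 7.69, 9.84 and 9.7 CPM without. Its groups did not overlap, yet the change of 0.49 (SE 0.24, adjusted p = 0.241) did not pass.

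Summed over its 9 peaks IKZF3 rose by 0.39 (SE 0.09, adjusted p = 0.00689), with 124, 171, 218 and 219.9 CPM with pomalidomide, against 83.7, 115, 169.7 and 193 CPM without. The call was lost without JJN3 with the combination or without KMS11 pomalidomide (adjusted p = 0.0812). IKZF1, which encodes Ikaros, had 1 called peak of 7, at chr7:50300403-50300646, 3478 bp from the start, with 20.7, 18.4, 4.07 and 4.1 CPM with pomalidomide, against 4.51, 7.05, 3.11 and 2.91 CPM without. JJN3 stood apart with the drug, and the groups overlap because KMS11 was low in both. Its log2 change was 1.13 (SE 0.30, adjusted p = 0.0111), and the call was lost without any 1 of the 4 JJN3 libraries (adjusted p up to 0.139). The summed level of IKZF1 had a log2 change of 0.07 (SE 0.10, adjusted p = 0.809), and that of CRBN -0.22 (SE 0.14, adjusted p = 0.437).

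Peaks at genes of other proteins that cereblon drugs can degrade moved both ways. Of 54 peaks at 16 such genes 3 were higher and 2 lower, or 9.26% against the 6.21% of all peaks. In ZBTB16, the zinc finger factor PLZF, the peak at chr11:114149709-114150291 had 7.0, 13.6, 10.5 and 13.7 CPM with pomalidomide, against 3.01, 4.49, 1.04 and 3.88 CPM without. There was no overlap between the groups, and the log2 change was 2.02 (SE 0.31, adjusted p = 6.79e-06). A peak 100183 bp from TP63 rose by 1.95 (SE 0.36, adjusted p = 0.000166), with the call lost without KMS11 with the combination (adjusted p = 0.0947). ZNF827 had a rise of 0.98 and a fall of -0.60, and the ZNF692 promoter fell by 0.40 on the log2 scale. Each of these 3 lost its call without at least 2 different libraries, with adjusted p up to 0.0974, 0.572 and 0.286.

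Plasma cell transcription factor genes had a called share close to that of all peaks, 6.99% of 186, with 9 higher and 4 lower. In MEF2C, a MADS-box factor gene, the peak at chr5:88785632-88786310 had 8.66, 6.79, 12.0 and 21.4 CPM with pomalidomide, against 1.5, 2.56, 3.11 and 5.82 CPM without. Every library with the drug was above every library without, and the log2 change was 1.92 (SE 0.29, adjusted p = 3.06e-06). In POU2F1, the octamer factor OCT1, the peak at chr1:167273236-167273796 had 40.7, 37.8, 34.7 and 32.2 CPM with pomalidomide, against 30.1, 23.1, 14.0 and 12.3 CPM without. The groups did not overlap, with the KMS11 pairs the farther apart, and the log2 change was 1.00 (SE 0.17, adjusted p = 2.61e-05). A peak in RUNX1 rose by 1.41 (SE 0.26, adjusted p = 0.000175). These 3 kept their call without any 1 library.

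The remaining plasma cell factor calls depended on single libraries. POU2AF1, the coactivator OBF1, had rises of 1.17 and 0.81. PRDM1, which encodes the plasma cell regulator BLIMP1, had a rise of 0.64, with 31.3, 25.7, 28.1 and 24.4 CPM with pomalidomide, against 13.5, 15.4, 22.5 and 15.9 CPM without. RUNX3 (0.79), KLF13 (1.05) and a second RUNX1 peak (0.93) were also higher, and CREB3L2 (-0.65), TCF4 (-0.84), ELL2 (-0.84) and ZBTB20 (-0.93) were lower. Without the library whose loss mattered most, their adjusted p was 0.102 and 0.204 for POU2AF1, 0.0992 for PRDM1 and up to 0.408 for the others. IRF4 and MYC, both central to the known action of pomalidomide, had no called peak. Summed, IRF4 had 59.0, 54.0, 63.7 and 57.4 CPM with pomalidomide, against 50.7, 40.5, 58.0 and 72.4 CPM without, with a log2 change of 0.06 (SE 0.12, adjusted p = 0.879). MYC had 125, 114, 75.5 and 67.0 CPM with pomalidomide, against 114, 154, 76.1 and 75.2 CPM without, with a log2 change of -0.12 (SE 0.10, adjusted p = 0.604), and the groups overlap at both genes.

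Of 60 peaks at plasma cell surface and secretory genes 2 were higher and 4 lower, so 10% were called against the 6.21% of all peaks, and the median log2 change was -0.04. None of the 17 summed genes passed with edgeR. The promoter peak of CD38, the surface ectoenzyme targeted by myeloma antibodies, at chr4:15778025-15779285 had 24.3, 24.2, 24.0 and 30.5 CPM with pomalidomide, against 33.1, 35.3, 35.7 and 37.8 CPM without. Groups stood apart there and KMS11 with the combination was the highest of the libraries with pomalidomide. The log2 change was -0.45 (SE 0.15, adjusted p = 0.0499), and the call was lost without any 1 of the 8 libraries (adjusted p up to 0.234). The promoter peak of MZB1, a chaperone of antibody secretion, fell by 0.70 on the log2 scale and a peak inside MZB1 rose by 0.79. A peak in SDC1, which encodes CD138, fell by 0.57 and one near FCRL5 by 0.86, and a peak near CD28 rose by 0.60. Each of these 5 lost its call without at least 4 of the libraries, with adjusted p up to 0.309.

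Interferon response genes had 5 rises and 1 fall among 74 peaks, or 8.11% against the 6.21% of all peaks. The median change was 0.14 over 34 summed genes, against -0.02 over all genes, and the medians of the T and NK (0.28), stromal and endothelial (0.22) and myeloid (0.17) markers were higher. At the promoter of DDX58, which encodes the cytosolic RNA sensor RIG-I, the peak at chr9:32526085-32526764 had 25.3, 28.1, 33.2 and 36.3 CPM with pomalidomide, against 15.0, 14.8, 18.9 and 14.9 CPM without. The groups stood clear of each other, and the log2 change was 0.96 (SE 0.17, adjusted p = 6.89e-05). The PARP9 promoter rose by 0.66 (SE 0.15, adjusted p = 0.0019). In USP18, which restrains interferon signalling, a peak rose by 1.03 (SE 0.20, adjusted p = 0.000364), but not without KMS11 pomalidomide (adjusted p = 0.0552). Near SAMD9L 1 peak fell by 1.28 (SE 0.28, adjusted p = 0.00141) and another rose by 0.97, the second not without JJN3 pomalidomide or JJN3 DMSO (adjusted p = 0.0835).

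NF-kB response genes had 7 rises and 1 fall among 76 peaks, or 10.5% against the 6.21% of all peaks. In TNIP1, a partner of the deubiquitinase A20 that restrains NF-kB, the peak at chr5:151085503-151086045 had 26.3, 20.4, 29.2 and 18.9 CPM with pomalidomide, against 6.76, 13.5, 14.0 and 5.5 CPM without. The groups did not overlap, and the log2 change was 1.23 (SE 0.21, adjusted p = 5.59e-05). TRAF1, an adaptor of TNF receptors, had a rise of 1.27 (SE 0.29, adjusted p = 0.00228). These were the members that kept their call without any 1 library. Rises near NFKBIA (1.1), in TNFAIP3 (1.02), TRAF3 (0.84) and NFKB1 (1.08), at the BIRC2 promoter (0.45), and a fall in NFKB1 (-1.06) lost their call without at least 2 libraries, with adjusted p up to 0.41. None of the 21 summed genes passed.

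BATF and AP-1 genes encode basic leucine zipper factors. Of their 64 peaks 5 were higher and 1 lower, or 9.38% against the 6.21% of all peaks. The BATF2 promoter had 15.0, 24.7, 8.15 and 15.3 CPM with pomalidomide, against 9.77, 10.9, 3.11 and 7.76 CPM without. All 4 pairs rose and the groups overlap, with a log2 change of 1.05 (SE 0.24, adjusted p = 0.00226) that did not pass when thinned (adjusted p = 0.0634). Rises in BACH2 (0.62), NFE2L1 (0.93), NFE2L3 (0.70) and BACH1 (0.73) and a fall in ATF3 (-0.48) lost their call without at least 1 library, with adjusted p up to 0.203. ETS family genes had 8 rises and 1 fall among 103 peaks, or 8.74% against the same 6.21%. In ETS1 the peak at chr11:128496817-128497792 had 98.3, 81.9, 29.2 and 22.3 CPM with pomalidomide, against 57.1, 49.4, 16.3 and 10.4 CPM without. JJN3 was higher than KMS11 throughout, each pair rose, and the log2 change was 0.83 (SE 0.14, adjusted p = 3.74e-05). In ETV7 a peak rose by 1.46 (SE 0.24, adjusted p = 1.82e-05), in ETV6 by 1.02 (SE 0.23, adjusted p = 0.00286) and near ELF4 by 1.22 (SE 0.29, adjusted p = 0.0051). The ELF4 peak did not pass when thinned (adjusted p = 0.0573) or with DESeq2 (adjusted p = 0.0651). Second peaks in ETV6 (0.68) and ETS1 (0.94), peaks in ETV1 (1.36) and FLI1 (1.19), and a fall in FLI1 (-0.42) were lost without at least 1 library, with adjusted p up to 0.287.

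Cell cycle genes had 5 rises and 4 falls among 76 peaks, or 11.8% against the 6.21% of all peaks. Near CCND1, the cyclin D1 gene, the peak at chr11:69578148-69578584, 62503 bp away, had 7.0, 5.82, 1.72 and 1.78 CPM with pomalidomide, against 17.3, 7.05, 15.8 and 2.59 CPM without. Each pair was lower with pomalidomide, with wide gaps in the pairs without GNE-781 and narrow ones in the pairs with it. The log2 change was -1.56 (SE 0.33, adjusted p = 0.00099), and the call was lost without KMS11 pomalidomide or KMS11 DMSO (adjusted p = 0.255). The pomalidomide difference with GNE-781 minus that without was 1.84 (SE 0.65) and did not pass. The libraries with GNE-781 held only 8 to 12 counts at this peak, so a dependence on GNE-781 is not shown. The E2F1 promoter fell by 0.60 on the log2 scale, a peak in CCNE2 by 0.87 and a peak in CDK6 by 0.90. Another CDK6 peak rose by 1.26, CDKN1A, the CDK inhibitor p21, had a rise of 0.57, and CCND3, the cyclin D3 gene, had rises of 0.73, 1.51 and 0.66. All these calls were lost without at least 2 libraries, with adjusted p up to 0.319.

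BCL2 family genes had 2 peaks higher and 1 lower of 75, or 4%, near the 6.21% of all peaks. The peak at chr18:59881620-59882553, 17395 bp from PMAIP1, which encodes the pro-apoptotic protein NOXA, had 31.0, 23.8, 42.0 and 37.8 CPM with pomalidomide, against 15.8, 15.4, 17.9 and 12.3 CPM without. No overlap was seen between the groups, and the log2 change was 1.19 (SE 0.17, adjusted p = 1.43e-06). The summed counts of PMAIP1 rose by 0.48 (SE 0.10, adjusted p = 0.00188). In BCL2L1, the gene of BCL-xL, only the KMS11 pairs rose: the peak at chr20:31712705-31713231 had 4.67, 2.42, 24.9 and 25.8 CPM with pomalidomide, against 7.52, 2.56, 6.21 and 6.14 CPM without. It was called with a log2 change of 1.53 (SE 0.29, adjusted p = 0.000236), while JJN3 alone gave -0.51. Without KMS11 DMSO or KMS11 with the combination the call was lost (adjusted p up to 0.0907). The pomalidomide difference in KMS11 minus that in JJN3 was 2.44 (SE 0.65) and did not pass (adjusted p = 0.132, edgeR quasi-likelihood test). The JJN3 libraries held only 4 to 14 counts at this peak, so a difference between the lines is not shown. A peak in BCL2 fell by 0.79 and lost its call without 4 of the libraries (adjusted p up to 0.149).

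IL-6, JAK and STAT3 genes had 5 rises and 2 falls among 51 peaks, or 13.7% against the 6.21% of all peaks. The promoter of IL6ST, the shared receptor subunit gp130, had 98.0, 91.6, 94.3 and 115 CPM with pomalidomide, against 56.4, 70.5, 69.9 and 72.1 CPM without. Every library with pomalidomide was above every library without, with a log2 change of 0.57 (SE 0.12, adjusted p = 0.000837). The PTPN2 peak at chr18:12862225-12862885, at an annotated start of this phosphatase of JAK and STAT proteins, rose by 1.13 (SE 0.20, adjusted p = 8.8e-05). A peak in JAK1 fell by 1.11 (SE 0.26, adjusted p = 0.0033). Rises in STAT3 (1.89), at an IL6R start (0.87) and near SOCS3 (0.53) and a fall in LIFR (-0.85) lost their call without at least 1 library, with adjusted p up to 0.551.

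Adhesion and homing genes had 9 rises and 2 falls among 54 peaks, or 20.4% against the 6.21% of all peaks. This was the largest called share of the 19 lists, which were chosen with earlier results of these data known. The adhesion list contains CTNND1, described above. In CDH1, the E-cadherin gene, peaks rose by 0.96, 0.99 (SE 0.25, adjusted p = 0.00708) and 0.48, and 1 fell by 0.89. In ITGB1, the integrin beta 1 gene, a peak at chr10:32957485-32958780 had 45.0, 32.5, 73.1 and 81.0 CPM with pomalidomide, against 34.6, 32.7, 46.6 and 41.4 CPM without. Both KMS11 pairs rose while JJN3 with GNE-781 stood at 32.5 against 32.7, and the log2 change was 0.60 (SE 0.14, adjusted p = 0.00315). The CXCR3 promoter, of a chemokine receptor gene, rose by 0.65, and its groups did not overlap, with 29.3, 18.4, 20.8 and 22.4 CPM with pomalidomide, against 17.3, 11.5, 17.1 and 12.0 CPM without. Peaks near VCAM1 (1.43) and in ITGAM (0.54) rose and 1 in CD44 fell (-0.67). Apart from CTNND1 and the CDH1 peak given with its error, these calls were lost without at least 1 library, with adjusted p up to 0.25, and that CDH1 peak did not pass when thinned (adjusted p = 0.102) or with DESeq2 (adjusted p = 0.08).

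B cell identity genes had 4 rises and 1 fall among 66 peaks, or 7.58% against the 6.21% of all peaks. In BANK1, a B cell adaptor, 3 peaks rose by 1.68, 2.26 and 1.01, and in JJN3 alone the first of these stood at -0.55. The peak of 2.26 had 2.67, 6.3, 6.0 and 6.59 CPM with pomalidomide, against 0.75, 1.92, 1.04 and 0.97 CPM without. It stood at few counts in every library without pomalidomide, and it kept its call without any 1 library but not when thinned (adjusted p = 0.0712); DESeq2 gave it no adjusted p. A peak near ID3 (1.06), a fall in PAX5 (-0.72) and the 2 other BANK1 rises were lost without at least 1 library, with adjusted p up to 0.624. Acetyltransferase and BET genes had 1 rise among 32 peaks, or 3.12% against the same 6.21%. It was at the promoter of KAT5, the acetyltransferase TIP60. That peak had 70.3, 85.3, 47.8 and 53.2 CPM with pomalidomide, against 50.4, 57.7, 30.5 and 39.8 CPM without. Each pair rose, and the log2 change was 0.53 (SE 0.13, adjusted p = 0.00467), which did not pass when thinned (adjusted p = 0.134). Cytosolic ribosomal protein genes, with 70 peaks at 44 genes, had 0 calls in either direction and a median change of 0.02.

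Markers of other cell types were read the same way. T and NK cell markers had 4 rises and 2 falls among 35 peaks, or 17.1% against the 6.21% of all peaks. The summed level of these markers ranged from 557 to 649 CPM with pomalidomide and from 579 to 675 CPM without. Rises were at TRAC (1.73 and 1.25), CD8B (0.73) and CD2 (0.58), and falls at GNLY (-0.79) and CD247 (-0.71). The first TRAC peak kept its call without any 1 library, and the others were lost without at least 2, with adjusted p up to 0.218. Stromal and endothelial markers had 6 rises and 0 falls among 52 peaks, or 11.5% against the same 6.21%. Summed levels were 469 to 620 CPM with the drug and 445 to 505 CPM without. The stromal and endothelial rises were at PECAM1 (0.90), KDR (1.13), VWF (0.84), EMCN (1.18 and 0.86) and COL1A1 (0.54). KDR, VWF, COL1A1 and the first EMCN peak were below 0 in JJN3 alone. PECAM1 kept its call without any 1 library, and the other 5 did not, with adjusted p up to 0.509. Myeloid markers (0 of 9 peaks, 105 to 169 CPM with and 84.3 to 172 CPM without) and erythroid markers (0 of 13, 219 to 244 CPM and 219 to 282 CPM) had no call.

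**Figure D5:**
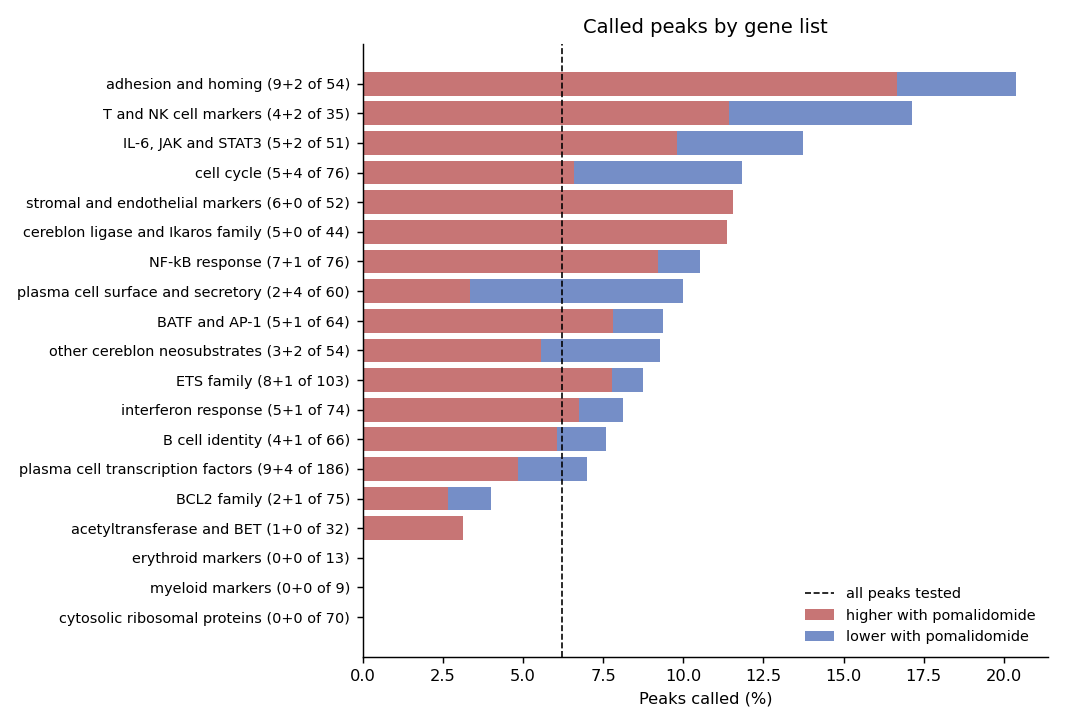
Percent of the tested peaks of each of 19 gene lists called higher (red) and lower (blue) with pomalidomide, with the counts in brackets as higher plus lower of tested; the dashed line marks the 6.21% of all peaks. Adhesion and homing genes stand at 20.4% and cytosolic ribosomal protein genes at 0.

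Over all 106 called peaks of the lists, 28 kept their call without any 1 library, 47 kept it when thinned and 32 with DESeq2. The losses were more frequent without a KMS11 library, from 45 without the combination to 55 without pomalidomide, than without a JJN3 library, from 24 without pomalidomide to 28 without GNE-781 or the combination. In JJN3 alone 100 of the 106 had the sign of the call. The JJN3 libraries took part in these calls, so this figure describes them and does not check them.

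Summed over all peaks of a gene, 762 of 25121 gene entries were higher with pomalidomide, or 3.03%, and 347 were lower, or 1.38%. The rises of lowest p were RP13-616I3.1, CTNND1, RP11-603B13.1, ITGA10 and KIF25. RP13-616I3.1 had 156, 127, 109 and 88.6 CPM with pomalidomide, against 67.6, 51.0, 38.4 and 35.6 CPM without, with a log2 change of 1.35 (SE 0.11, adjusted p = 6.13e-13). The groups did not overlap in it. The falls of lowest p were RP11-861L17.2 (-0.80), RNA5S1 (-0.54), MGC39584 (-0.49), RN7SL205P (-0.46) and AC004915.1 (-0.88). RNA5S1 and RN7SL205P belong to families of near-identical copies, the ribosomal RNA of 5S type and the signal recognition particle RNA. Counts in a peak on such a copy would be uncertain. The sums cover 2 and 14 peaks assigned to these entries, and whether those peaks lie on the copies was not examined. Of the list genes, these further sums were higher: DDB1 (0.60), POU2F1 (0.41), MEF2C (0.45), BATF2 (1.04), NFE2L1 (0.55), ETS1 (0.30), ETV6 (0.30), DDX58 (0.95), USP18 (0.62), CCND3 (0.31), PMAIP1, BMF (0.32), ID3 (0.38), KAT5 (0.47), ITGB1 (0.48), CDH1 (0.33), CXCR3 (0.63), ITGAM (0.52), TRAC (0.68), CD8B (0.58) and COL1A1 (0.54). ZNF692 was lower (-0.43). Of the list genes CTNND1, BATF2, DDX58 and PMAIP1 kept this call without any 1 library, and the rest had an adjusted p of up to 0.547 without the library that mattered most. The BATF2 sum did not pass when thinned (adjusted p = 0.062).

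No peak was shown to respond differently with GNE-781 present. The test of the pomalidomide difference with GNE-781 minus that without called 0 of 62234 peaks with edgeR, or 0%, and 0 with DESeq2. At an unadjusted p under 0.05 it had 1943 peaks with edgeR and 117 with DESeq2. The lowest p in each direction were at LINC00351, RP11-168O22.1, RP11-323I1.1, ZNF250 and ENPEP, where the difference was more positive with GNE-781, and at RP11-508N12.2, PCCB, COL5A1, DPY19L1 and RNU6-348P, where it was more negative; none passed. This model leaves 2 residual degrees of freedom, so a p that misses the threshold does not show that the drug acts alike in both states.

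The same model also holds a term for the line. The test of the pomalidomide difference in KMS11 minus that in JJN3 called 24 peaks, or 0.0386%, with 16 positive and 8 negative; DESeq2 called 0, with 773 at an unadjusted p under 0.05 against 4120 with edgeR. With 2 residual degrees of freedom here too, the count of calls does not show that the lines respond alike elsewhere. In NPR3, a natriuretic peptide receptor gene, the peak at chr5:32785432-32786242 had 9.33, 6.3, 31.7 and 33.5 CPM with pomalidomide, against 13.5, 7.69, 7.25 and 6.79 CPM without. KMS11 rose in both pairs and JJN3 fell in both, and the term was 2.61 (SE 0.50, adjusted p = 0.00989). In F13A1, the coagulation factor XIII gene, the peak at chr6:6218412-6219017 had 25.3, 17.0, 5.57 and 3.38 CPM with pomalidomide, against 6.01, 5.77, 7.25 and 8.41 CPM without. Here JJN3 rose and KMS11 fell, and the term was -2.65 (SE 0.54, adjusted p = 0.0271). In TMEM178B only the KMS11 libraries with the drug were high, with 4.67, 3.39, 32.4 and 19.4 CPM with pomalidomide, against 6.76, 5.13, 4.66 and 5.82 CPM without and a term of 2.86 (SE 0.62, adjusted p = 0.0346). In ANKRD33B the level was high in JJN3, with 122, 103, 5.79 and 4.63 CPM with pomalidomide, against 72.2, 59.6, 9.84 and 9.7 CPM without, and the term was -1.67 (SE 0.37, adjusted p = 0.0346). The other peaks of lowest p were at GALNTL6 (1.90), CTD-2351A8.1 (1.83) and RP11-2P2.1 (2.53) on the positive side and at SLC2A7 (-2.23), BMPR1APS2 (-3.29) and MEF2C-AS1 (-3.67) on the negative. Each of these 10 lost its call without at least 4 of the 8 libraries, with adjusted p up to 0.705, and none passed when thinned.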

How the data were processed

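The authors deposited raw counts, whole numbers of reads per peak for 62528 peaks in all 8 libraries, without normalization; the table's name points to MACS2 peaks of a q of 0.01, merged over libraries. Per the submitters' processing notes the build was GRCh38 and the tools were R 4.1.2, MACS2 2.1.1.20160309, SAMtools 1.10, Bowtie2 2.3.5.1, cutadapt 2.5 and Trim Galore 0.6.4. How duplicates, mitochondrial reads and the transposase offset were handled, and whether reads or fragments were counted, is not given in the sources used here. Peak sets merged in this way favour deeper libraries, and PCR copies lead to understated counting error.

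A mean CPM of 2 was the minimum for a peak (294 removed). Libraries were scaled with TMM factors and peaks tested with edgeR 4.0.16 in R 4.3.3 (quasi-likelihood, two-sided, Benjamini-Hochberg over all peaks, additive model of line, GNE-781 and pomalidomide). The model leaves 4 residual degrees of freedom, not the 5 written in the plan, against 55.2 prior degrees of freedom borrowed over peaks; the common biological coefficient of variation was 0.12. A called peak can therefore disagree between pairs. Pair differences are log2 CPM with a prior count of 2. Gene sums cover all peaks the authors assigned to a gene (25121 tested). A further model added the terms of pomalidomide with line and with GNE-781.

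Each line and treatment has 1 library, and whether separate cultures were used is not in the labels, so p-values cover only the spread among these 8 samples, which may be technical. Members and the 19 gene lists (435 genes, 346 with a peak, 1 by an older symbol) were chosen with earlier results of these data known. The genes named are the 10 rises and 10 falls of lowest p with 1 sign in all pairs, 5 promoter peaks in each direction likewise, every called list peak, list genes whose sums pass with the 5 sums of lowest p in each direction, IKZF1, IKZF3 and CRBN, and the 5 peaks of lowest p in each direction of each added term. The script was tested on simulated data. Alternatives were other scalings and filters, limma 3.58.1, DESeq2 1.42.0, thinning, a matched pair block and leaving out libraries. Promoter sequences are from RefSeq, and figures were drawn with matplotlib 3.10.9. Cells that overexpress BATF or eGFP, named in the design text, are not analysed here. One called list peak is not reported here.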

Additional observations from a re-analysis of the deposited data

Results flagged for a closer look

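The line term is the pomalidomide difference in KMS11 minus that in JJN3, on the log2 scale. By edgeR's quasi-likelihood test it passed at 11 named peaks (adjusted p under 0.05). All but the DDB1 peak were named for their low p in this same test. The term was 2.54 near DDB1 (adjusted p = 0.0413), 2.61 at NPR3, 1.90 at GALNTL6, 1.83 near CTD-2351A8.1, 2.53 near RP11-2P2.1 and 2.86 at TMEM178B. It was -2.65 at F13A1, -2.23 at SLC2A7, -3.29 near BMPR1APS2, -1.67 at ANKRD33B and -3.67 at MEF2C-AS1. DESeq2 called 0 peaks for this term, with 773 at an unadjusted p under 0.05, and no peak passed when thinned. Apart from DDB1, not read this way, each lost its call without at least 4 of the 8 libraries.

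A single library stood apart from the other 3 of its group, past Dixon's 95% critical value, in 14 of 306 groups examined, where chance gives about 1 in 20. Each group holds 1 library per combination of line and GNE-781 state, not replicates. A gap of this kind therefore cannot be told from a difference of line or GNE-781 state, and the 1 in 20 is only a guide. Among the libraries with pomalidomide, JJN3 pomalidomide was low at KIF25 (21.66 CPM, next 35.37), at the IKZF3 peak chr17:39755635-39756503 (31.99, next 53.6) and at the BANK1 peak chr4:101818443-101818706 (2.67, next 6), and high at GNLY (15.33, next 9.44). JJN3 with the combination was high at the IKZF3 peak chr17:39757996-39758274 (22.79, next 16.38) and at RUNX3 (25.7, next 15.33), and KMS11 with the combination was high at CD38 (30.45, next 24.33).

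Among the libraries without pomalidomide, JJN3 GNE-781 was high at CTNND1 (9.62 CPM, next 3.01), KMS11 GNE-781 at ELL2 (17.14, next 9.62) and KMS11 DMSO at DDX58 (18.89, next 15.03). JJN3 DMSO was high at MZB1 (27.81, next 18.64), NPR3 (13.53, next 7.69) and SLC2A7 (27.06, next 6.47), and low at IL6ST (56.37, next 69.88).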

How the results depend on the processing

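Against 3864 calls (2733 higher, 1131 lower), the count was 2188 (1428 higher) with a mean CPM of at least 10, which tests fewer peaks, 1050 (841 higher, 209 lower) with DESeq2, 2199 (1769 and 430) with line as the sole covariate and 1560 (1187 and 373) when thinned to the smallest library. It was 1318 (864 and 454) in JJN3 alone, 1099 (865 and 234) without GNE-781 and 1125 (959 and 166) with GNE-781, each from fewer samples. limma-voom called 1730 falls. The matched pair block gave 4030 calls. No scaling moved the share of rises outside 66.7% to 71.9%. No called peak changed sign under another scaling, filter, test, thinning or left-out library. In JJN3 alone 183 called peaks did, in KMS11 alone 11, and in the libraries with or without GNE-781 alone 1 each. Leaving out 1 library gave 1834 to 3362 calls, with 1371 to 2582 rises and 463 to 1041 falls.

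For summed genes the 1109-call total became 347 with promoter peaks only, 358 with DESeq2, 550 when thinned and 545 to 1051 without 1 library. The GNE-781 term called 0 or 1 without 1 library. The line term called 0 with DESeq2, 0 when thinned and 5 to 12 without 1 library. The promoter share difference ran from -0.607 to 0.528 points and changed sign (0.435, 0.224, 0.112, 0.528) without JJN3 with the combination, KMS11 pomalidomide, KMS11 DMSO or KMS11 GNE-781. In JJN3 alone the change was -0.51 at BCL2L1, -0.55 at BANK1, -0.50 at KDR, -0.17 at VWF, -0.10 at EMCN and -0.03 at COL1A1, and ID3 summed over promoter peaks was -0.05. Where no construction is named, the cause was not tested. The median count per peak ran from 12 to 27 in the JJN3 libraries and from 27 to 49 in the KMS11 libraries, and its part in the number of calls was not tested.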

Other observations

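Some genes held several called peaks, a pattern chosen after the values were seen, where 4.39% of all peaks were higher and 1.82% lower. The entry KRT8P17 had 7 rises and 0 falls among 21 peaks, SETBP1, which encodes a SET-binding protein, 6 and 1 of 26, and NRCAM, a neuronal cell adhesion molecule gene, 6 and 2 of 20. AHNAK, which encodes a large scaffold protein, had 5 rises of 12 peaks and LMNA, the lamin A/C gene, 5 of 11. SRGAP2 had 5 of 20, ASAP1 5 rises and 1 fall of 37, and ITGB6, the integrin beta 6 gene, 4 of 12. Falls gathered at TTC34, with 7 of 16 peaks and no rise, at PTPRN2, a phosphatase-like receptor gene, with 6 of 67 and no rise, and at MGC39584, with 5 of 10 and no rise.

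Falls were unevenly spread over chromosomes and rises less so. The share of tested peaks called lower was 3.13% on chromosome 4 and 3.03% on chromosome 18, against 0.42% on chromosome 19, 0.486% on chromosome 15 and 0.656% on chromosome 17. The share called higher was 5.03% and 3.44% on chromosomes 4 and 18 and 2.8%, 4.7% and 4.1% on chromosomes 19, 15 and 17. By level, both directions were most frequent from 8 to 20 CPM. Falls were 0.327% of peaks under a mean of 4 CPM, 2.53% of those from 8 to 20 CPM and 1.7% of those over 80 CPM, and rises 3.18%, 5.22% and 1.38%.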
